A study of Homo sapiens with 2 samples.

Results

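The accessible chromatin around 5 genes of the BCL2 family, BCL2, MCL1, BCL2L1, BCL2A1 and BCL2L11, was described in GM12878. A region counted as a member if its midpoint lay within 50 kb of the span of a gene in the hg19 assembly, and 35 of the 23612 regions in the list met this rule. GM12878 is an established human B lymphoblastoid line that carries Epstein-Barr virus. The cells were untreated and were taken in exponential growth as 2 libraries from separate cultures, with 50000 cells in each. They were assayed by ATAC-seq, in which a transposase inserts sequencing adapters into open DNA. There was 1 group and no control, and the deposited result is 1 list for both cultures.

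The BCL2 family decides whether a cell starts the mitochondrial pathway of apoptosis. BCL2, MCL1, BCL2L1 (which encodes BCL-XL) and BCL2A1 (which encodes BFL1, also called A1) are known to hold back this pathway by binding the killer members of the family. BCL2L11 encodes BIM, a BH3-only protein that binds these guardians and promotes death, and in B cells it is known to remove autoreactive and unsupported cells. A translocation that joins BCL2 to the immunoglobulin heavy chain locus is a hallmark of follicular lymphoma, and latent Epstein-Barr virus proteins are known to repress BCL2L11 in infected B cells.

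Each region has a position, a width and the authors' score, a whole number from 567 to 1000 among the members and from 541 to 1000 in the list. The scale of the score is named neither in a header nor in a label, and it served only to rank regions within the list. A high score is therefore not read as strong accessibility. The highest score was shared by 18 of the 35 members (51.4%), against 60.1% of the list. The list has no counts and no value per culture, so the depth is unknown and no difference between cultures could be measured. For the same reason no test was made, and a stretch without a region is not read as closed chromatin. Within each of the 5 windows the numbers that the authors gave to the regions ran on with 0 skipped. The name of the list holds the letters idr, Mapp, Mito and Black. These were taken to mean a cutoff on reproducibility between the cultures, and filters on mappability, mitochondrial sequence and blacklisted stretches. Neither their details nor a link to the score was examined.

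The BCL2 window was the fullest of the 5, and the BCL2L11 window the emptiest for its length. BCL2 had 16 regions in 296 kb, or 5.40 per 100 kb, and MCL1 had 5 in 105 kb, or 4.75 per 100 kb. BCL2L1 had 6 regions (3.79 per 100 kb), BCL2A1 had 4 (3.62 per 100 kb) and BCL2L11 had 4 (2.71 per 100 kb). Over the 5 windows this gave 4.28 regions per 100 kb, against 0.772 per 100 kb for the list on chromosomes 1 to 22 and X. Regions covered 4.97% of the windows, against 0.682% of those chromosomes. The windows are centred on genes and the chromosomes are not, and the part of gene density in this difference was not tested. The order of the genes depends on window length. Within 50 kb on each side of the start site alone, BCL2L1 had 6.0 regions per 100 kb, BCL2 and MCL1 had 5.0 each, BCL2A1 4.0 and BCL2L11 2.0.

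**Figure D1:**
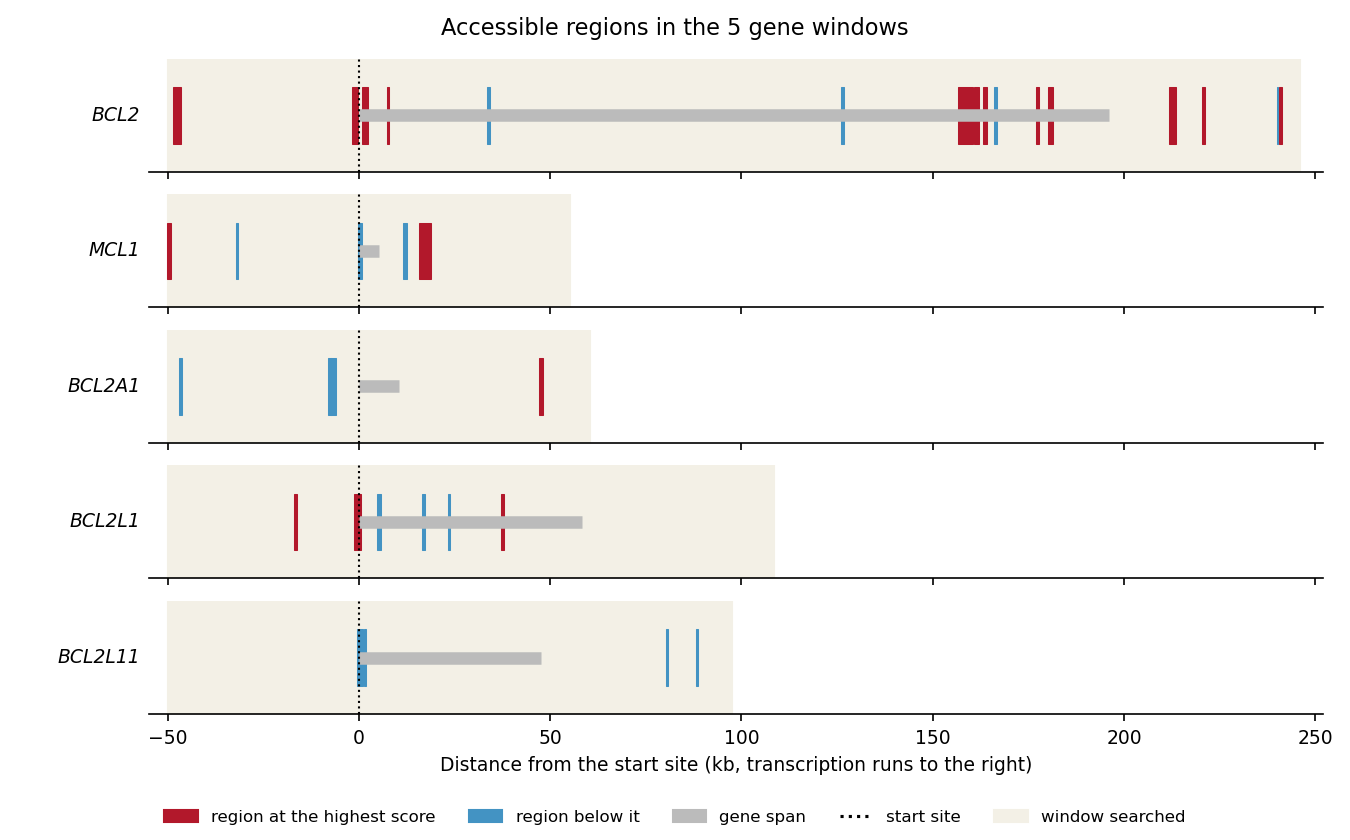
Accessible regions in the windows of the 5 genes, drawn by distance from each start site in kb with transcription to the right (horizontal axis). Each vertical box is 1 region, with a thin outline that keeps narrow ones visible, red at the highest score and blue below it. The 16 regions near BCL2 gather at its start and towards its far end, and those near BCL2A1 lie outside the grey gene span.

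Tiles of the same length along the same chromosome gave a local background. In the BCL2 window there were 16 regions, whereas the 250 tiles of chromosome 18 had a median of 1, quartiles of 0 and 4, and 15 in the fullest tile. The MCL1 window had 5 regions, against a median of 0 and quartiles of 0 and 1 in the tiles of chromosome 1. BCL2A1 had 4, against the same median and quartiles on chromosome 15. BCL2L1 had 6 and BCL2L11 had 4, and the tiles of chromosomes 20 and 2 each had a median of 1 and quartiles of 0 and 2. All 5 windows were above the upper quartile of their tiles. Each window was chosen to hold a gene and the tiles were not, and the part of gene density was not tested here either. For every gene except BCL2 at least 1 tile held more regions than the gene window. The tiles include the stretches of the gene windows, so the BCL2 count is in part set against its own regions. Which tile of chromosome 18 was the fullest was not recorded, so 16 against 15 may largely set the BCL2 stretch against itself. Tiles that touch centromeric, variable or stalk bands were left out.

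**Figure D2:**
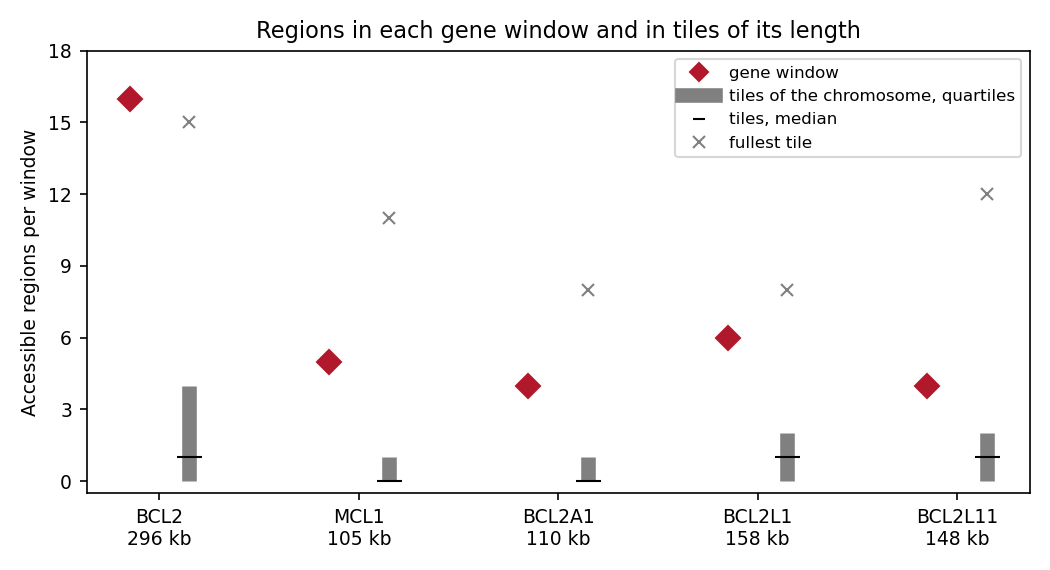
Number of accessible regions (vertical axis) in each gene window (red diamond) beside tiles of the same length on the same chromosome (grey bar, quartiles; black dash, median; cross, fullest tile). The BCL2 window held 16 regions and the fullest tile of chromosome 18 held 15. Tiles include the stretches of the gene windows, so the fullest tile of chromosome 18 may overlap the BCL2 window.

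At the start sites, 4 of the 5 genes had a region within 1 kb and BCL2A1 had none. The regions of MCL1, BCL2L1 and BCL2L11 covered the start base itself. The MCL1 region (chr1:150551430-150552527, 1098 bp, score 720) ran from 313 bp upstream into the gene. The BCL2L1 region (chr20:30310145-30312033, 1889 bp, score 1000) lay mostly upstream, with 1377 bp before the start. The BCL2L11 region (chr2:111877902-111879680, 1779 bp, score 908) had 589 bp before the start, and a second region of 656 bp followed it after 125 bp.

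BCL2 had regions on either side of its start base but none across it. The upstream region (chr18:60986827-60988383, 1557 bp) ended 214 bp before the start, and the other (chr18:60984219-60985804, 1586 bp) began 809 bp inside the gene. Both were at the highest score. For BCL2A1 the nearest region lay 6007 bp upstream. The start sites are the gene ends that the membership rule gives, and a gene may use other starts.

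**Figure D3:**
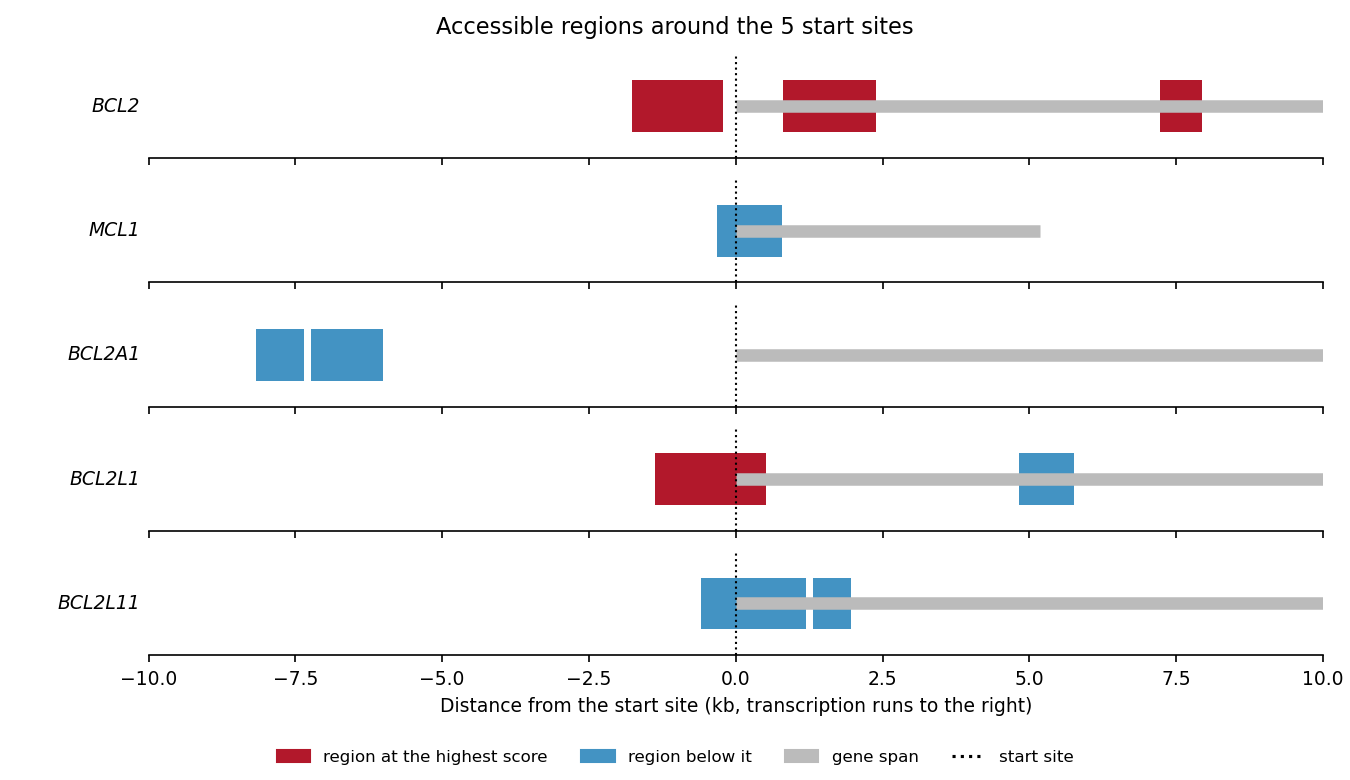
Accessible regions within 10 kb of the 5 start sites, by distance in kb with transcription to the right (horizontal axis), red at the highest score and blue below it. The dotted start site is covered in MCL1, BCL2L1 and BCL2L11, lies between regions in BCL2 and is 6007 bp from the nearest region in BCL2A1.

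Of the genes with an entry, BCL2A1 had the fewest CpG dinucleotides before its start. RefSeq start windows were at hand for 4 of the 5 genes, on GRCh38.p14, and were not placed on hg19. The 250 bases upstream are shown for BCL2A1, whose start by the membership rule had no region. Those of BCL2L11 and BCL2L1, whose starts by that rule were covered, are shown beside them. For BCL2L1 the outer of 2 RefSeq starts is shown, which may not be the start of the rule. Letters run 5′ to 3′, and capitals mark CpG dinucleotides.
BCL2A1 (GRCh38.p14, chr15:79971197-79971446, minus strand): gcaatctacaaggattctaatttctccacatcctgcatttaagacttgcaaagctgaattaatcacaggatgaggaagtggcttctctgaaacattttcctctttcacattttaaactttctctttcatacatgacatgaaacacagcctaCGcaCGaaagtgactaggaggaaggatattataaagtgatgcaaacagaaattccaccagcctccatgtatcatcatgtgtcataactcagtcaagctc
BCL2L1 (GRCh38.p14, chr20:31723964-31724213, minus strand): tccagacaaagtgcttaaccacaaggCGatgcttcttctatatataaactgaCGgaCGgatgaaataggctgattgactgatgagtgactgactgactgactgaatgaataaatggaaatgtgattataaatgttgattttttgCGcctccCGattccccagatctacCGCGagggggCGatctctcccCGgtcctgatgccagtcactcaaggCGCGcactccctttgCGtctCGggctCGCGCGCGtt
BCL2L11 (GRCh38.p14, chr2:111120664-111120913, plus strand): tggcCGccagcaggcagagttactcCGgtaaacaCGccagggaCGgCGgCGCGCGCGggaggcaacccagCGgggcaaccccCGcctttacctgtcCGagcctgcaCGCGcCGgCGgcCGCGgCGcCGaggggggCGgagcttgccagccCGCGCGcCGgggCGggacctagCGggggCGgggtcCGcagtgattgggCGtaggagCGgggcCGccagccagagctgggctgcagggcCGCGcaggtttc

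BCL2A1 had 2 CpGs and a GC content of 38.8%, and 77.1% of the 35116 RefSeq windows had more CpGs. BCL2L11 had 34 CpGs and 76.8% GC. BCL2, whose start base was not covered either, had 24 CpGs and 70.0% GC. A link between CpG count and a region at the start was not tested. BCL2L1 has 2 start windows in the table, 1095 bases apart. The outer one, printed above, had 17 CpGs and 50.0% GC, and the inner one had 12 CpGs and 60.4% GC. The median of all windows was 11 CpGs (quartiles 3 and 23) and 58.0% GC. The BCL2L11 span has the same length in the table as in the rule, 47532 bp. The other 4 spans differ in length, so for these the RefSeq start may not be the start used above. At BCL2L1 the span is 59512 bp in the table and 58396 bp in the rule. The start used above may therefore be nearer the inner window, and the letters printed may belong to another start.

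**Figure D4:**
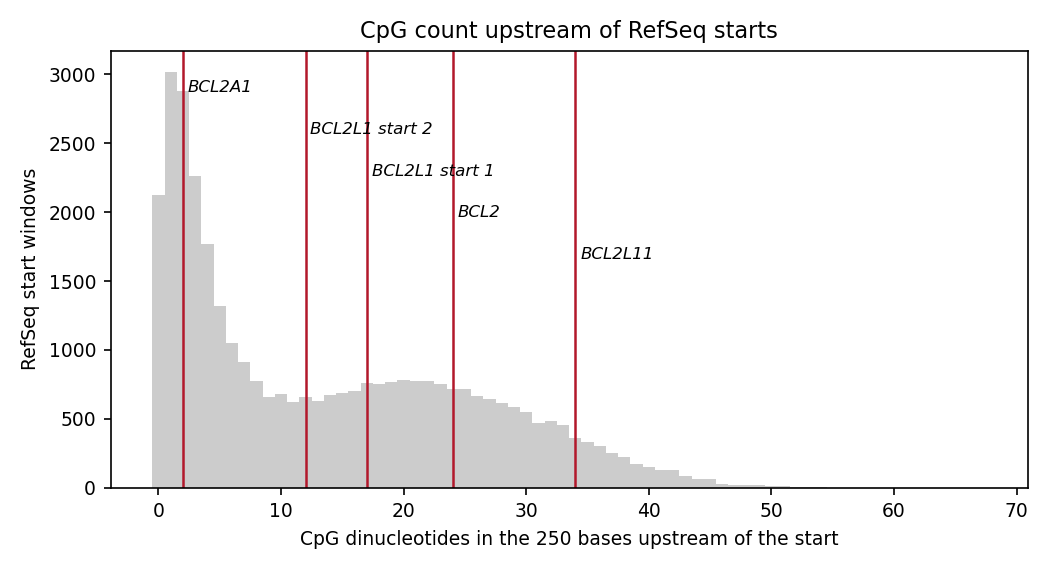
CpG dinucleotides in the 250 bases upstream of each RefSeq start (horizontal axis) and the number of start windows with that count (vertical axis, grey bars). Red lines mark the genes with an entry, from BCL2A1 with 2 CpGs to BCL2L11 with 34.

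Short motifs were looked up in the same 250 bases on both strands, 12 in all. BCL2A1 had 1 TATAAA (a core promoter box, in 10.7% of all windows), 1 GGAAGT (ETS core, 19.5%) and 1 interferon regulatory factor repeat, GAAA, any 2 bases and GAAA again (3.02%). BCL2L11 had 3 GGGCGG (GC box, 42.6%) and 1 CCAAT (32.0%). BCL2 had 1 CGGAAG, an ETS core that can overlap GGAAGT (16.5%). The outer BCL2L1 window had 2 TATAAA and 1 TGTGGT (RUNX, 11%), and the inner one had none of the 12. No match was found in any of these windows for TGANTCA (AP-1, 6.57%), TGACGTCA (CRE, 1.65%), CACGTG (E-box, 6.34%), ATGCAAAT (octamer, 1.63%) or the NF-kB consensus (9.96%). A match describes the letters and not a bound site.

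BCL2, the founding guardian of the family, lies on the minus strand in band 18q21.33 (chr18:60790579-60986613). Of its 16 regions, 10 lay in the gene span, 2 upstream and 4 downstream. The gene is known for a very long intron, but no hg19 gene model was used here and regions were not assigned to exons or introns. Most regions within the span fell towards its ends. Near the start lay the region 809 bp into the gene, then 1 of 727 bp at 7.58 kb and 1 of 785 bp at 33.9 kb. The stretch after it, 91.7 kb or 46.8% of the span (chr18:60860596-60952289), held no region.

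Past this stretch and a lone region of 770 bp, 126 kb from the start and with a score of 579, came the group with the most regions among the members. It held 6 regions in 24.8 kb (chr18:60805221-60830010), joined where gaps were at most 12500 bp, and lay within the span, with midpoints 159 to 181 kb from the start. These 6 regions covered 37.3% of the group's length and made up 45.5% of all accessible bases in the BCL2 window. Their widths were 1375, 757, 679, 1214, 1250 and 3963 bp in order of position. The score was at its highest for 5 of them and 981 for the one of 679 bp. The widest (chr18:60826048-60830010) was the widest of all members, and 12 regions of the list were wider. Groups of 5 or more held 6 of the 35 members, all 6 at BCL2, against 4.54% of the list. With joining at 5 kb the group came apart and its larger piece held 4 regions.

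The flanks of BCL2 held the remaining 6 regions. Downstream of the gene were regions of 1618, 852, 353 and 737 bp, with midpoints 213 to 241 kb past the start. Upstream, beside the region at the start, there was 1 of 2068 bp (chr18:61033183-61035250), 47.6 kb before the start site. The next protein-coding gene on that side is KDSR, an enzyme of sphingolipid synthesis, by gene order in the RefSeq table of GRCh38.p14. Which gene a flanking region serves was not tested.

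MCL1, a short-lived guardian on which B cells are known to depend, is the shortest gene of the 5 (chr1:150547027-150552214, minus strand, band 1q21.3). Its 5 regions were 1 in the span, 2 upstream and 2 downstream. The widest lay 17.3 kb past the start, outside the gene (chr1:150533396-150536432, 3037 bp, score 1000), on the side where ADAMTSL4 is the next protein-coding gene. A region of 1203 bp with a score of 630 lay between it and the gene. Upstream there were regions of 681 bp (score 854) at 31.9 kb and of 994 bp (score 1000) at 49.7 kb, the side of ENSA. The region at the MCL1 start was thus neither the widest nor among the highest-scoring ones of its window.

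BCL2L1, known for keeping developing lymphocytes and platelets alive, lies on the minus strand in band 20q11.21 (chr20:30252261-30310656). It had 4 regions in the span, 2 upstream including the one at the start, and 0 downstream. Regions inside the gene stood 5.29, 16.9, 23.6 and 37.6 kb from the start. Their widths were 933, 860, 425 and 951 bp and their scores 767, 574, 567 and 1000, in the same order. The 3 of these nearest to the start scored below the cap of 1000. The other upstream region (964 bp, score 1000) lay 16.5 kb before the start, on the side of TPX2, a spindle assembly gene. Whether it lies at the TPX2 start was not examined.

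BCL2A1, known as a target of NF-kB in activated lymphocytes, lies on the minus strand in band 15q25.1 (chr15:80253232-80263643). No region lay in its span, and it was the one gene of the 5 with 0 there. The whole gene fell in a stretch of 53.1 kb without a region (chr15:80216579-80269649). Upstream of the start were 2 regions that lay only 109 bp apart, of 1229 bp (chr15:80269650-80270878, score 686) and 823 bp (chr15:80270988-80271810, score 755). The others were 1 of 658 bp at 46.6 kb upstream of the start (score 980) and 1 of 1132 bp at 47.6 kb downstream of it, past the end of the gene (score 1000). The next protein-coding genes were ZFAND6 upstream and the ST20-MTHFS readthrough gene downstream.

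BCL2L11, the killer member of the set, lies on the plus strand in band 2q13 (chr2:111878491-111926022). Both regions in its span lay at the start, and 0 lay upstream of the gene. The next 78.2 kb held none (chr2:111880462-111958681), which takes in 95.9% of the span. The remaining 2 regions lay downstream, 80.5 and 88.3 kb from the start, with widths of 564 and 490 bp and scores of 603 and 650. Another region of that group lay just outside the window, so its members are part of a group of 3. The next protein-coding genes on either side were ACOXL and ANAPC1.

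The number of regions at the highest score varied among the genes. BCL2 had 12 of 16, BCL2L1 3 of 6, MCL1 2 of 5, BCL2A1 1 of 4 and BCL2L11 0 of 4. Without BCL2 the share over the other 4 genes was 31.6%, against 51.4% with it and 60.1% in the list. Those 4 genes had only 4 to 6 regions each, and the differences among genes were not tested. Among the 17 members below the cap, scores ran from 567 to 981 with a median of 720, and the list below the cap had a median of 731.5.

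The median width of the members was above that of the list. It was 951 bp (quartiles 732 and 1312.5), against 756 bp (quartiles 547 and 1082) in the list. Among regions at the highest score the median was 1232 bp for members and 953 bp for the list, and below it 770 bp for members and 556 bp for the list. All 5 regions within 1 kb of a start site exceeded the upper quartile of the list, from 1098 to 1889 bp, with a median of 1586 bp. The other 30 members had a median of 856 bp, and 10 of them exceeded that quartile. By gene the median was 1098 bp for MCL1, 1033 bp for BCL2, 977.5 bp for BCL2A1, 942 bp for BCL2L1 and 610 bp for BCL2L11. At least 2 kb wide were 3 of the 35 members, 2 at BCL2 and 1 at MCL1, beside 3.31% of the list. No test was made of these differences.

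**Figure D5:**
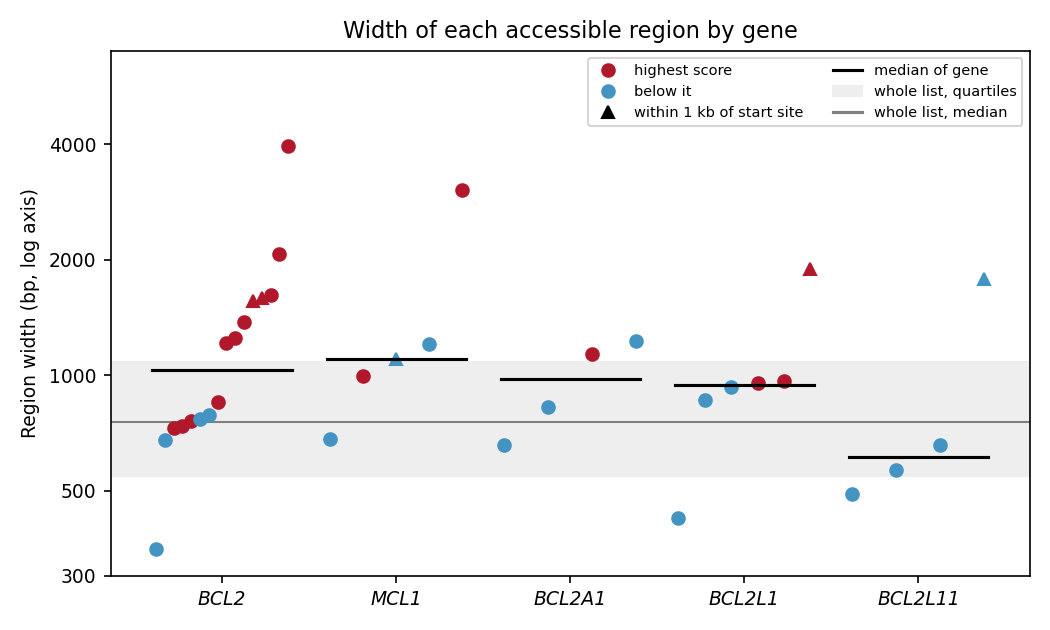
Width of each of the 35 regions in bp on a log axis, by gene, in order of width. Points are red at the highest score and blue below it, triangles lie within 1 kb of a start site, black lines are gene medians, and the grey line and band are the median and quartiles of the whole list. All 5 triangles stand above the band, and no BCL2L11 region is red.

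Some members stood so close together that they may be counted as single sites. Of the 35 regions, 8 had a neighbour within 1 kb, against 10.2% of the list. They formed a pair each at BCL2A1 (109 bp apart) and BCL2L11 (125 bp apart), and at BCL2 a pair in the group of 6 (186 bp apart) and a pair in the downstream flank (236 bp apart). Counted as 1 where they lay within 1 kb, the members came to 31.

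The limit of 50 kb fell close to some regions. The MCL1 region of 994 bp lay 287.5 bp inside its limit. Just outside lay a BCL2L11 region of 673 bp (score 1000), 1199 bp past the limit, and a BCL2L1 region of 500 bp (score 1000), 1463.5 bp past it. With the first of these, BCL2L11 would have had 1 region at the highest score.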

How the data were processed

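ATAC-seq libraries of GM12878 were made from 2 cultures, which form 1 group. Per the submitters' processing notes the build was hg19 and the tools included MACS2 2.1.0, BWA 0.7.13, Picard 1.92, bedtools 2.24.0, SAMtools 0.1.19, Trim Galore 0.3.3 and CASAVA 1.8.4. No source used here gives their roles, or says whether reads were shifted for the transposase. The authors deposited 1 list without a header, with a start, an end, a number and a score for each region, and no depth.

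Gene spans, strands and the 50 kb limit are those of the membership rule. Starts were converted to count from 1. Distances run from the start site, and groups join gaps of at most 12500 bp. Bands and chromosome lengths of hg19 came from circlize 0.4.16. RefSeq tables of GRCh38.p14 gave gene order and start sequences only. Python 3.11.15, numpy 2.4.6, pandas 2.3.3, scipy 1.17.1 and matplotlib 3.10.9 were used, and the window and joining code was checked on planted regions. The text names the 5 genes, the regions at their starts, the widest region of each and the fullest group. Members, lists and comparisons were chosen with earlier results of these data known. Motifs were sought in the 250 bases before the start.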

Additional observations from a re-analysis of the deposited data

How the results depend on the processing

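Of 48 alternatives over 16 results, 31 kept a count within 1.5 times, or a median or share within its 95% binomial interval, and 17 moved it. These results have no direction, so a reversal was not possible. The interval only sorted the alternatives. It treats regions as independent draws, which neighbouring regions of 1 gene in 1 list are not. With the highest score alone, there were 18 regions in all, 2 at MCL1, 1 at BCL2A1, 3 at BCL2L1 and 0 at BCL2L11, genes with a region at the start numbered 2 (BCL2 and BCL2L1), and the median width was 1232 bp. A flank of 25 kb left 3 regions at MCL1, 2 at BCL2A1 and 2 at BCL2L11, and a flank of 100 kb gave BCL2L1 10. The span alone held 10 at BCL2, 1 at MCL1, 0 at BCL2A1 and 2 at BCL2L11. Around the start site alone BCL2L1 had 6.0 regions per 100 kb. Without BCL2 the share at the highest score was 31.6%. Shorter flanks and stricter scores remove regions by construction. Joining neighbours within 1 kb was added after seeing the data and gave 31 regions. No paired analysis was possible because 1 list stands for both cultures of the only group, and no culture could be left out. Depth is unknown, and the name of the list points to a reproducibility cutoff and filters. A stretch without regions may therefore be one where regions were not detectable or were filtered out, which was not tested.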
